A study of Mus musculus with 9 samples.

Results

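Genes of the integrated stress response were followed in the cerebellum of a mouse model of spinocerebellar ataxia type 3 (SCA3). The 10 genes were Atf4, Ddit3, Atf3, Xbp1, Trib3, Ppp1r15a, Asns, Chac1, Sesn2 and Slc7a11. They were listed by name, with no threshold on their values but with earlier results of these data known, and all 10 were found among the 37816 genes of the count table. SCA3 is caused by a lengthened run of CAG triplets in ATXN3, which lengthens a glutamine tract in ataxin-3. The mice carried the human gene on a yeast artificial chromosome with 15 CAG repeats (15Q) or 84 CAG repeats (84Q), in a C57BL/6 background. The study obtained the 15Q mice from the laboratory of H. L. Paulson and the 84Q mice from The Jackson Laboratory. Repeat length and the source of the mice therefore cannot be told apart. The remaining group, 84Q+IGF-1, held 84Q mice that received 50 mg/kg of insulin-like growth factor 1 intraperitoneally each week from 9 to 18 months of age. The sample labels call the 15Q and 84Q mice untreated, while the treatment protocol gives injections of phosphate-buffered saline. Tissue was taken at 18 months, there were 3 libraries in each group, and no mice without a transgene were sequenced here.

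The integrated stress response is a shared answer of cells to amino acid shortage, unfolded proteins in the endoplasmic reticulum (ER), haem shortage and viral RNA. Each stress activates a kinase that phosphorylates the translation factor eIF2, which lowers protein synthesis as a whole while translation of the ATF4 mRNA increases. ATF4 then drives genes for amino acid synthesis, amino acid transport and redox balance, so the RNA levels of its target genes are often used as a readout. The phosphorylation and the translational step themselves leave no direct trace in RNA counts.

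The libraries held between 17482654 and 58269196 counted reads. Levels are given as CPM, the counts of a gene relative to the library total, scaled by the trimmed mean of M values. A gene was called changed when the Benjamini-Hochberg adjusted p of edgeR's quasi-likelihood test was under 0.1 and the fold change was at least 1.5, over 19353 genes tested. All 10 genes passed the filter on low counts. Markers of Purkinje cells, granule cells, astrocytes, oligodendrocytes and microglia were present in all 9 libraries. Genes of neighbouring or distant tissues stood apart in some libraries. The summed level of 8 choroid plexus genes was 502 CPM in 15Q replicate 1, 484 CPM in 15Q replicate 3 and 1044 CPM in 84Q replicate 2, against 28.3 to 67.9 CPM in the other 6 libraries. The summed level of 8 intestinal genes was 24.3 to 38.2 CPM in the 15Q libraries and 5.003 to 6.51 CPM in the other 6, and lists for liver, epidermis and skeletal muscle were also higher in each 15Q library than in the others. Xist exceeded 10 CPM in 2 of 3 libraries of 15Q, 1 of 3 of 84Q and 1 of 3 of 84Q+IGF-1. In whole-tissue RNA, fewer cells of a type and less RNA per cell cannot be told apart.

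Short promoter stretches are shown first because they hold the ATF4 binding motif that ties several of these genes to the response. The C/EBP-ATF response element (CARE), searched as TGATGNAA on both strands, was found in the promoter windows of 5 of the 10 genes and in 3.97% of 32851 RefSeq promoters of mouse (GRCm38.p6, 250 bases before to 50 after each start). The windows of Atf3, Trib3, Asns and Chac1 held 1 match each, and that of Slc7a11 held 2 in opposite orientations. The sequences are written 5′ to 3′ on the strand of the gene, with the matches in capitals.
Slc7a11, chr3:50443638-50443694, minus strand: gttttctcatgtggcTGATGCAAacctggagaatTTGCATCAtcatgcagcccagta
Chac1, chr2:119351034-119351071, plus strand: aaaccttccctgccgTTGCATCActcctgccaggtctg
Atf3, chr1:191183421-191183458, minus strand: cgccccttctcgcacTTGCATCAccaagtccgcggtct
Asns, chr6:7693215-7693242, minus strand: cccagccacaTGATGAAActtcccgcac
Trib3, chr2:152344029-152344056, minus strand: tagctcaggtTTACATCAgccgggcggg
The cyclic AMP response element, TGACGTCA, was found in the window of Ppp1r15a among the 10 and in 1.79% of all promoters. A match describes these letters in this window and no binding was measured.

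Levels per length differed widely among the 10 genes. Length-scaled levels (TPM) were computed from the union of exon lengths, as mean ± SD over all 9 libraries. Atf4 was the highest at 208 ± 16.9 TPM, with all its libraries above those of the next gene. Asns at 95.8 ± 8.30 TPM and Xbp1 at 73.8 ± 9.97 TPM followed, with overlapping ranges. Ppp1r15a at 42.6 ± 4.65 TPM and Ddit3 at 37.5 ± 1.57 TPM also overlapped. Sesn2 stood at 28.0 ± 1.80 TPM and Chac1 at 13.7 ± 2.14 TPM, each apart from its neighbours. Slc7a11 at 6.64 ± 2.11 TPM, Trib3 at 3.67 ± 0.709 TPM and Atf3 at 2.38 ± 0.632 TPM were the lowest, and each overlapped the next. The annotated exons of Slc7a11 span 13922 bases, which lowers its TPM. The counts behind the lowest gene, Atf3, were 19 to 106 reads per library, so its levels were the least precise.

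The groups 84Q and 15Q differ in repeat length and in the source of the mice. In their comparison 1 of the 10 genes was called, against 2.14% of all genes tested. The called gene was Slc7a11, and it was lower in 84Q, as were 1.9% of all genes. The count was again 1 of 10 for 84Q+IGF-1 against 15Q, Slc7a11 and lower, beside 2.25% of all genes called and 2.06% called lower. Between 84Q+IGF-1 and 84Q none of the 10 passed, and 0% of all genes did. The first 2 comparisons share the 15Q libraries. The libraries of the 2 groups did not overlap for 3 of the 10 genes in each comparison with 15Q, namely Slc7a11 and Atf3, which were lower, and Xbp1, which was higher. Among all genes tested, 25.4% did not overlap between 84Q and 15Q (13.5% lower and 11.9% higher) and 24.7% between 84Q+IGF-1 and 15Q (13% lower and 11.7% higher). The median log2 fold change of the 10 genes was -0.08, -0.03 and -0.05 in the 3 comparisons in the order given, beside medians of -0.00, -0.01 and -0.00 over all genes. The 95% interval of the fold change lay within 1.5-fold in either direction for 7, 6 and 7 of the 10 genes, beside 63.3%, 63.9% and 66.2% of all genes.

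**Figure D1:**
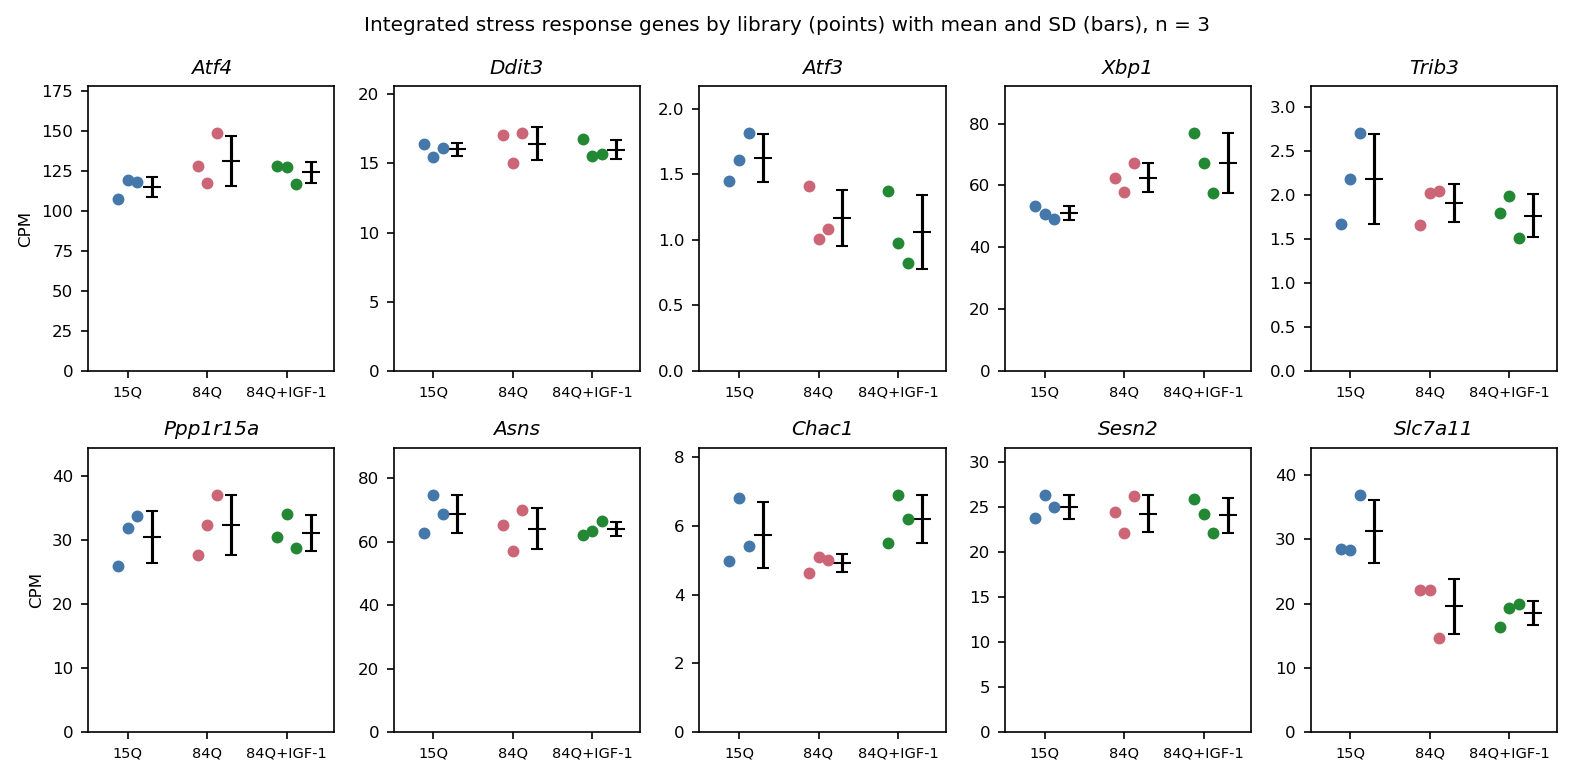
Level of each of the 10 genes in CPM (vertical axis, from 0) by group (horizontal axis), with 1 point per library and the group mean ± SD (n = 3) as bars. The Slc7a11 points of 15Q, from 28.3 to 36.8 CPM, lie above all 6 points of the other groups, while points of most other genes overlap between groups.

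Among the transcription factors, Atf4, the central factor of the response, measured 108, 119 and 118 CPM in 15Q replicates 1 to 3, 128, 118 and 148 CPM in 84Q, and 128, 127 and 117 CPM in 84Q+IGF-1. The highest library was 84Q replicate 3, and the groups overlapped. Its log2 fold change was 0.19 in 84Q against 15Q (95% interval 0.02 to 0.37, edgeR adjusted p = 0.220) and 0.11 in 84Q+IGF-1 against 15Q (adjusted p = 0.502). The same library, 84Q replicate 3, had the highest summed level of 12 immediate early genes, 582 CPM against 201 to 337 CPM in the other 8 libraries, and the part of this in the Atf4 value was not tested. Without 84Q replicate 3 the log2 fold change of Atf4 against 15Q was 0.10.

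Ddit3 encodes CHOP, a factor linked to cell death under prolonged ER stress. Its level was 16.4, 15.5 and 16.1 CPM in 15Q, 17.04, 15.0 and 17.2 CPM in 84Q, and 16.8, 15.5 and 15.7 CPM in 84Q+IGF-1. All 9 libraries lay within this narrow range. The log2 fold change of 84Q against 15Q was 0.04 with a 95% interval of -0.15 to 0.22, and that of 84Q+IGF-1 against 15Q was -0.00 (-0.19 to 0.18). A 1.5-fold change in either direction, 0.58 on the log2 scale, lies outside both intervals. Of the 31-base words in the Ddit3 transcripts, 4.38% also occurred in another annotated gene of the same symbol and 2.22% in Mars, which overlaps Ddit3 on the opposite strand. The strand setting of the counting is not given in the sources used here.

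Atf3, a factor induced by ATF4 and by many acute stimuli, measured 1.45, 1.61 and 1.81 CPM in 15Q, 1.41, 1.01 and 1.08 CPM in 84Q, and 1.37, 0.98 and 0.82 CPM in 84Q+IGF-1. Every 15Q library was above every other library, and the closest were 15Q replicate 1 and 84Q replicate 1. Its log2 fold change was -0.47 ± 0.24 (SE, edgeR adjusted p = 0.310) in 84Q against 15Q and -0.64 ± 0.24 (adjusted p = 0.196) in 84Q+IGF-1 against 15Q, and neither passed the test.

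Xbp1 encodes the factor that becomes active when IRE1 splices its mRNA, and it belongs to the ER branch of the stress response rather than to the eIF2 branch. Its level was 53.3, 50.9 and 49.0 CPM in 15Q, 62.4, 57.9 and 67.3 CPM in 84Q, and 76.8, 67.2 and 57.7 CPM in 84Q+IGF-1. Every 84Q and 84Q+IGF-1 library was above every 15Q library. The log2 fold change was 0.29 ± 0.09 (SE) in 84Q against 15Q, with an edgeR adjusted p of 0.128. Against the same 15Q libraries, 84Q+IGF-1 gave 0.40 ± 0.09 with an adjusted p of 0.0542, which passed the p threshold but not the fold threshold. Without 15Q replicate 2, 15Q replicate 3, 84Q+IGF-1 replicate 1 or 84Q+IGF-1 replicate 2 the adjusted p was 0.167, 0.209, 0.160 and 0.107, and it was 0.101 with Xist and 0.286 with the choroid plexus sum as a covariate. Under DESeq2 the adjusted p of Xbp1 was 0.0704 in 84Q and 0.00523 in 84Q+IGF-1 against 15Q. In edgeR with no filter on low counts it was 0.00411 and 9.1e-06. The log2 fold changes with no filter were still 0.29 and 0.40, with an SE of 0.07 in place of 0.09. In the filtered edgeR fit of 84Q+IGF-1 against 15Q, 1.04% of all genes were higher at an adjusted p under 0.1 with any fold. The shares under DESeq2 and with no filter are not given here. Gene counts do not separate spliced from unspliced Xbp1 mRNA. With the summed level of 8 meningeal genes as a covariate, chosen after the data were seen, the log2 fold changes were -0.00 and -0.01. That sum did not overlap between 15Q and the other groups, so the covariate and the group cannot be told apart.

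Trib3 encodes a pseudokinase that restrains ATF4 and CHOP. Its level was 1.67, 2.18 and 2.70 CPM in 15Q, 1.66, 2.02 and 2.05 CPM in 84Q, and 1.80, 1.995 and 1.51 CPM in 84Q+IGF-1. The groups overlapped, and the spread was widest in 15Q. Its log2 fold change was -0.22 (95% interval -0.69 to 0.25) in 84Q and -0.33 (-0.79 to 0.14) in 84Q+IGF-1 against 15Q, so a change of 1.5-fold downwards lies within both intervals.

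Ppp1r15a encodes GADD34, which brings a phosphatase to eIF2 and so ends the response. Its level was 26.1, 31.9 and 33.8 CPM in 15Q, 27.7, 32.4 and 37.1 CPM in 84Q, and 30.5, 34.2 and 28.8 CPM in 84Q+IGF-1. The lowest library was 15Q replicate 1 and the highest 84Q replicate 3, and the groups overlapped. The log2 fold changes against 15Q were 0.07 (95% interval -0.19 to 0.34) in 84Q and 0.02 (-0.24 to 0.29) in 84Q+IGF-1.

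Of the metabolic targets, Asns encodes asparagine synthetase. It measured 62.7, 74.8 and 68.8 CPM in 15Q, 65.4, 57.2 and 70.0 CPM in 84Q, and 62.0, 63.6 and 66.6 CPM in 84Q+IGF-1. The groups overlapped, and the log2 fold change against 15Q was -0.10 in both, with intervals of -0.28 to 0.07.

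Chac1 encodes an enzyme that degrades glutathione. Its level was 4.98, 6.80 and 5.42 CPM in 15Q, 4.62, 5.10 and 5.02 CPM in 84Q, and 5.49, 6.89 and 6.20 CPM in 84Q+IGF-1. The 84Q+IGF-1 libraries were all above the 84Q libraries, and the 15Q libraries overlapped both. The log2 fold change of 84Q+IGF-1 against 84Q was 0.34 ± 0.15 (SE) with a 95% interval of 0.01 to 0.67, and the edgeR adjusted p was 0.969. Of all genes, 8.46% did not overlap between these groups, 3.96% in that direction, and Chac1 was 1 of the 10. Against 15Q the log2 fold change was -0.23 in 84Q and 0.11 in 84Q+IGF-1.

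Sesn2 encodes a sestrin that lowers mTORC1 activity when leucine is scarce. Its level was 23.7, 26.3 and 25.0 CPM in 15Q, 24.4, 22.1 and 26.2 CPM in 84Q, and 25.9, 24.3 and 22.1 CPM in 84Q+IGF-1. The groups overlapped, and the log2 fold changes against 15Q were -0.05 (95% interval -0.24 to 0.15) in 84Q and -0.06 (-0.25 to 0.14) in 84Q+IGF-1.

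Slc7a11 encodes xCT, the cystine/glutamate exchanger that supplies cystine for glutathione, and it is known in astrocytes and in meningeal cells of the brain. It lies at chr3:49892526-50443614 on the minus strand (GRCm38), and its promoter with 2 CARE matches is printed above. Its level was 28.4, 28.3 and 36.8 CPM in 15Q, 22.1, 22.0 and 14.6 CPM in 84Q, and 16.4, 19.3 and 20.0 CPM in 84Q+IGF-1. Every 15Q library was above the other 6, and 84Q and 84Q+IGF-1 overlapped. The log2 fold change was -0.67 ± 0.16 (SE, edgeR adjusted p = 0.0542) in 84Q against 15Q, a level 0.629 times that of 15Q. It was -0.75 ± 0.16 (adjusted p = 0.0335) in 84Q+IGF-1 against 15Q, or 0.595 times. Between 84Q+IGF-1 and 84Q it was -0.08 with a 95% interval of -0.43 to 0.27.

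**Figure D2:**
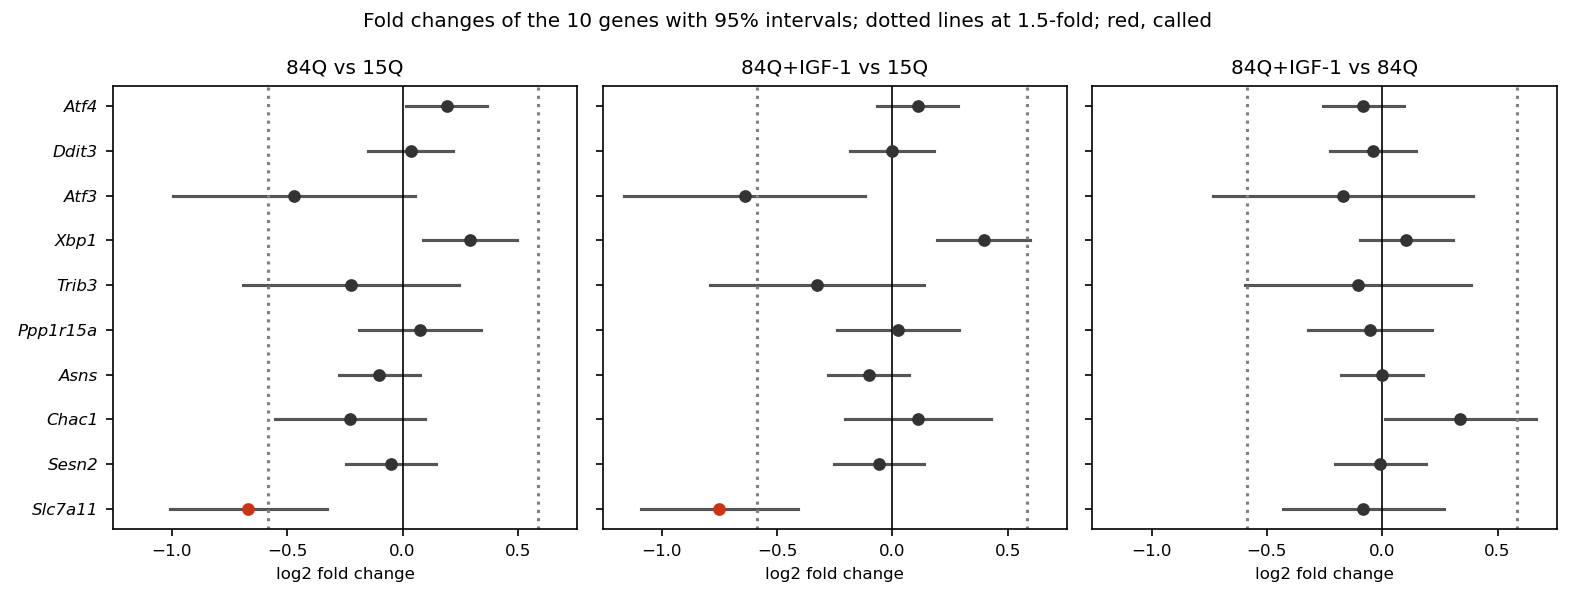
Log2 fold change (horizontal axis) of the 10 genes (rows) in the 3 comparisons (panels), as points with 95% intervals, with dotted lines at 1.5-fold and called genes in red. Slc7a11 is the called gene, at -0.67 and -0.75 in the comparisons with 15Q, and no gene is called between the 84Q groups.

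The Slc7a11 call depended on single libraries. In 84Q against 15Q it was lost without 15Q replicate 2 (log2 fold change -0.73), without 15Q replicate 3 (-0.52) and without 84Q replicate 3 (-0.50). For 84Q+IGF-1 it was lost without 15Q replicate 3 (-0.60) and without 84Q+IGF-1 replicate 1 (-0.67). The direction was the same in all these fits. Under DESeq2 both calls stood, with adjusted p of 0.00206 in 84Q and 0.000285 in 84Q+IGF-1. They also stood in edgeR with no filter on low counts (adjusted p 3.95e-09 and 1.1e-11). The log2 fold changes there were still -0.67 and -0.75, with an SE of 0.10 in place of 0.16. The shares of all genes called under these settings are not given here. With Xist as a covariate the log2 fold changes were -0.59 and -0.67, and both calls stood. With the choroid plexus sum as a covariate they were -0.61 (edgeR adjusted p = 0.0709) and -0.59 (adjusted p = 0.188), and the call in 84Q+IGF-1 was lost. Both calls were lost with replicate number as a block (adjusted p = 0.133 and 0.101). With the 3 libraries high in choroid plexus genes left out, a choice made after the data were seen, the log2 fold changes were -0.61 (edgeR adjusted p = 0.456) and -0.60 (adjusted p = 0.452).

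Genes listed as meningeal markers moved with Slc7a11, and whether their RNA came from meninges was not tested. The summed level of 8 meningeal genes (Dcn, Lum, Col1a1, Col1a2, Slc6a13, Slc22a6, Bgn and Slc13a4) was 156 to 221 CPM in 15Q, 86.9 to 129 CPM in 84Q and 80.4 to 105 CPM in 84Q+IGF-1, and none of the 8 was at 0 in any library. All 8 had negative log2 fold changes in both comparisons with 15Q, and 4 of 8 were called lower in 84Q and 7 of 8 in 84Q+IGF-1, beside 1.9% and 2.06% of all genes. The library highest in both measures was 15Q replicate 3, and the 84Q library lowest in both was replicate 3. These were also the libraries with the most and the fewest counted reads, 58269196 and 17482654. The part of depth in the Slc7a11 value was not tested. With the meningeal sum as a covariate, chosen after the data were seen, the log2 fold change of Slc7a11 was -0.05 in 84Q and 0.13 in 84Q+IGF-1, with edgeR adjusted p of 0.9997 and 0.982. The sum did not overlap between 15Q and the other groups, so the covariate and the group cannot be told apart. The summed level of 6 astrocyte genes was 1876 to 2429 CPM in 15Q, 2125 to 2407 CPM in 84Q and 2148 to 2240 CPM in 84Q+IGF-1, and these ranges overlapped. Single astrocyte genes differed from their sum. Of the 6, 4 had negative log2 fold changes in each comparison with 15Q (medians -0.10 in 84Q and -0.28 in 84Q+IGF-1), and 2 and 3 of them had all libraries below those of 15Q, beside 13.5% and 13% of all genes. None was called, beside 2.14% and 2.25% of all genes, and 1 was lower at an adjusted p under 0.1 in 84Q+IGF-1. The part of these genes in the Slc7a11 value was not tested. The intestinal sum also separated 15Q from the other groups, and its part in the Slc7a11 value was not tested.

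**Figure D3:**
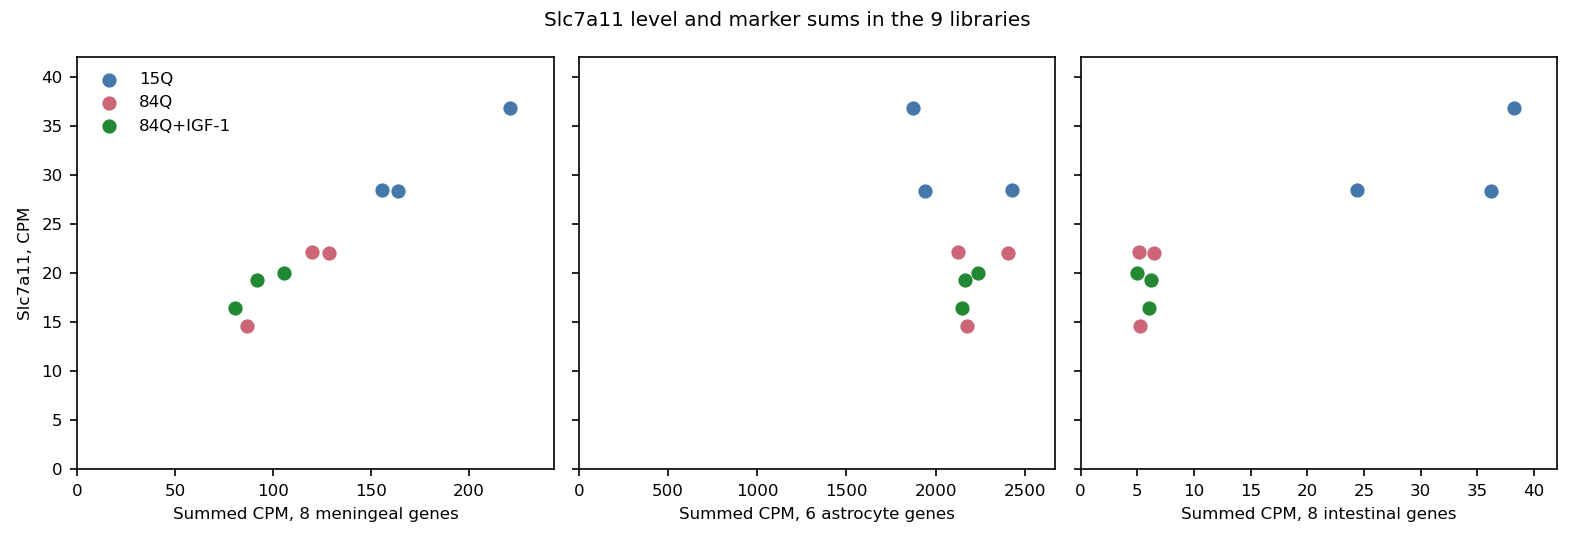
Slc7a11 level in CPM (vertical axis) against the summed CPM of 8 meningeal, 6 astrocyte and 8 intestinal genes (horizontal axes) in the 9 libraries, coloured by group. Libraries with a higher meningeal sum mostly have more Slc7a11, the astrocyte sums of the groups overlap although 4 of the 6 astrocyte genes have negative log2 fold changes against 15Q, and the intestinal sum separates 15Q, at 24.3 to 38.2 CPM, from the rest.

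The genes with levels most like that of Slc7a11, by Pearson r of log2 CPM over the 9 libraries among 12119 genes with a mean of at least 5 CPM, were Ptprb (r = 0.978), Cd2ap (r = 0.975) and Kcnq1ot1 (r = 0.974). These are descriptions over libraries that share their group and their composition. Ptprb, an endothelial phosphatase, had group means of 68.9 CPM in 15Q, 53.4 CPM in 84Q and 51.5 CPM in 84Q+IGF-1. Of the 31-base words in the Slc7a11 transcripts, 4.27% also occur in other genes and 1.59% in Tuba1a. How reads shared between genes were counted is not given in the sources used here, so the share of such reads in the Slc7a11 count is unknown. Tuba1a, 1 of 3231 genes that share such words, measured 364 ± 22.5 CPM in 15Q, 414 ± 14.0 CPM in 84Q and 383 ± 5.94 CPM in 84Q+IGF-1 (SD, n = 3). The part of these genes in the Slc7a11 value was not tested.

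The upstream part of the pathway was described by a list of 14 genes of the eIF2 arm, and none was called in any of the 3 comparisons, beside 2.14%, 2.25% and 0% of all genes, so a count of 0 is near the background. Its median log2 fold change was 0.06, 0.04 and -0.03. The sensor kinase PERK of the ER (Eif2ak3) measured 44.4 ± 2.21 CPM in 15Q, 47.6 ± 2.39 CPM in 84Q and 46.7 ± 0.0684 CPM in 84Q+IGF-1 (SD, n = 3). The sensor kinase GCN2 (Eif2ak4), which responds to uncharged tRNA, measured 47.2 ± 2.64, 44.6 ± 3.78 and 43.9 ± 2.99 CPM. The other two kinases of the arm did not pass the test either. HRI (Eif2ak1), the haem-regulated kinase, had log2 fold changes of 0.13 (edgeR adjusted p = 0.187) in 84Q and 0.10 (adjusted p = 0.329) in 84Q+IGF-1 against 15Q, with all libraries above those of 15Q. PKR (Eif2ak2), which senses viral RNA, had -0.33 in 84Q+IGF-1 against 15Q (adjusted p = 0.281) and against 84Q (adjusted p = 0.969), with all libraries below those of both groups. Eif2s1, the eIF2 subunit that is phosphorylated, had a log2 fold change of 0.09 (95% interval -0.07 to 0.24) in 84Q against 15Q. Ppp1r15b, the constitutive partner of the eIF2 phosphatase, had 0.05 (-0.08 to 0.19).

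Of a list of 42 ATF4 target genes that are not among the 10, 41 were tested. None was called between 84Q and 15Q or between the 84Q groups, beside 2.14% and 0% of all genes, so these counts are near the background. In 84Q+IGF-1 against 15Q 2 were called lower, beside 2.06% of all genes. Median log2 fold changes were -0.01, -0.02 and -0.01. CARE matches were found in 12 of the 31 target genes with a promoter sequence. The called genes were of low level. Cth, which makes cysteine from cystathionine, was 2.21 ± 0.601 CPM in 15Q, 1.34 ± 0.292 CPM in 84Q and 0.908 ± 0.241 CPM in 84Q+IGF-1 (SD, n = 3), with a log2 fold change of -1.31 ± 0.28 (SE, edgeR adjusted p = 0.0388) in 84Q+IGF-1. Tnfrsf10b, a death receptor, was 1.77 ± 0.183, 1.29 ± 0.387 and 0.850 ± 0.0581 CPM, with -1.06 ± 0.25 (adjusted p = 0.0536). Leaving out 15Q replicate 2, 15Q replicate 3 or 84Q+IGF-1 replicate 1 ended both calls, and leaving out 84Q+IGF-1 replicate 2 or 3 ended that of Tnfrsf10b. The count of 2 was 0 with the meningeal sum as a covariate and with the 3 libraries high in choroid plexus genes left out. The meningeal, intestinal and liver sums were higher in every 15Q library than in the other 6. The meningeal covariate and the group therefore cannot be told apart, and the part of the intestinal and liver sums in these calls was not tested.

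Serine synthesis genes were among the targets that ATF4 is best known for. Psat1 measured 73.4 ± 2.72 CPM in 15Q and 86.3 ± 11.7 CPM in 84Q, a log2 fold change of 0.23 (edgeR adjusted p = 0.183). Phgdh, the first enzyme of that pathway, had 0.15 (adjusted p = 0.377), and the mitochondrial folate enzyme Mthfd2 had 0.14 (adjusted p = 0.636). The amino acid transporter subunits Slc3a2, the partner of xCT, and Slc7a5 had 0.04 (95% interval -0.09 to 0.18) and -0.04 (-0.24 to 0.16). Slc3a2 stood at 127 ± 5.47 CPM in 15Q and 131 ± 10.001 CPM in 84Q, so the partner chain did not follow Slc7a11 by as much as 1.5-fold. At an unadjusted p under 0.05 the target list had 1 gene higher and 5 lower in 84Q against 15Q, and 2 higher and 7 lower in 84Q+IGF-1 against 15Q, of 41 tested and beside 19.4% and 17.7% of all genes in either direction. Aldh1l2, a mitochondrial folate enzyme, was among the lower genes in both, with log2 fold changes of -0.31 and -0.35 (edgeR adjusted p = 0.133 and 0.116). Slc1a5, a neutral amino acid transporter, had -0.38 and -0.67 (adjusted p = 0.357 and 0.147).

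Of the other factors and stress genes on the list, Atf5 had a log2 fold change of 0.03, Cebpb 0.29, Ddit4 0.18 and Nupr1 -0.44 in 84Q against 15Q, with edgeR adjusted p of 0.908, 0.460, 0.529 and 0.204. Nupr1, a stress-induced nuclear protein, was 4.48 ± 1.12 CPM in 15Q, 3.32 ± 0.160 CPM in 84Q and 3.22 ± 0.227 CPM in 84Q+IGF-1 (SD, n = 3), with 15Q libraries above all others. None of these passed the test in any comparison.

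**Figure D4:**
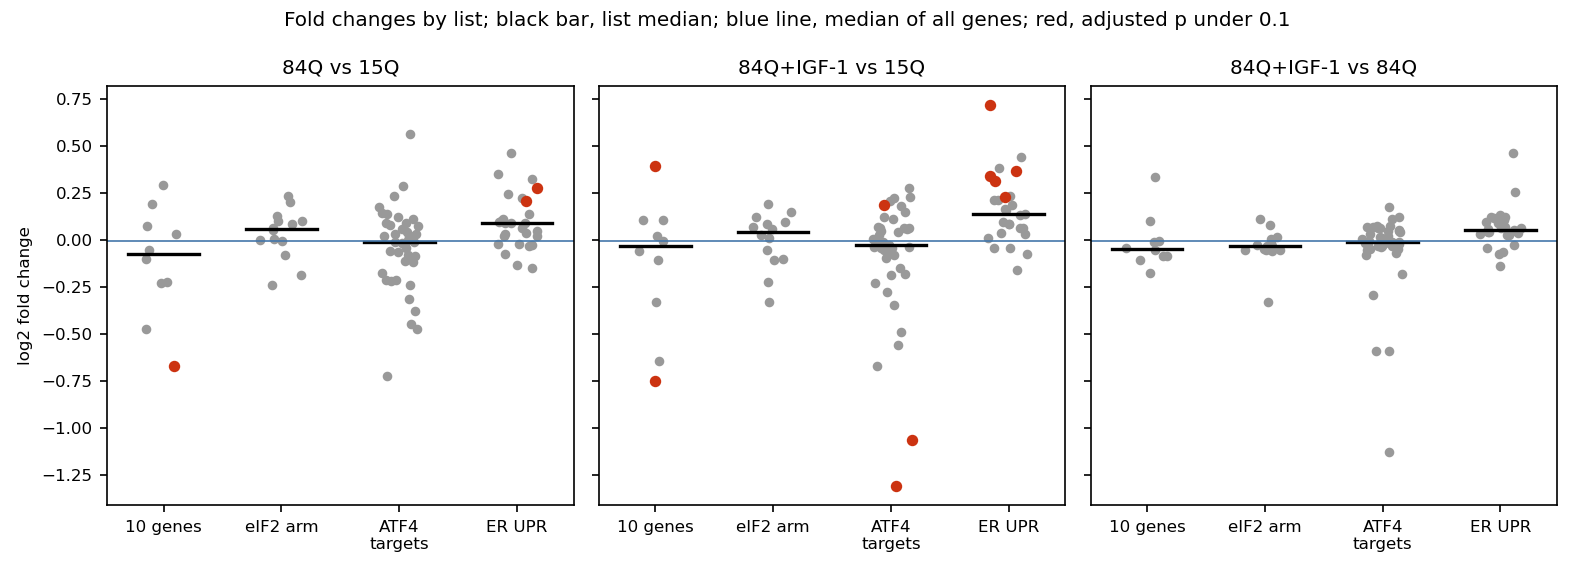
Log2 fold changes (vertical axis) of the 10 genes and of the eIF2 arm, ATF4 target and ER unfolded protein response (ER UPR) lists (horizontal axis) in the 3 comparisons (panels), 1 point per gene, with list medians as black bars, the median of all genes as a blue line and adjusted p under 0.1 in red. The ER list has medians of 0.09, 0.14 and 0.05, while those of the eIF2 arm and ATF4 target lists lie within 0.06 of 0.

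The neighbouring branch, the unfolded protein response of the ER, was described by 27 genes, mostly chaperones and degradation factors. In 84Q against 15Q 0 of 27 were called, beside 2.14% of all genes, so a count of 0 is near the background. In 84Q+IGF-1 against 15Q 1 of 27 was called higher, the chaperone cofactor Sdf2l1, beside 0.186% of all genes. Most members had small positive values, with 20, 23 and 22 of 27 above 0 in the 3 comparisons, beside 49.7%, 48.9% and 48.7% of all genes. Median log2 fold changes were 0.09, 0.14 and 0.05. Markers of other cells also had positive medians in 84Q against 15Q, 0.29 over 6 microglial genes, 5 of them positive, and 0.19 over 6 oligodendrocyte genes, 4 of them positive. In 84Q+IGF-1 against 15Q these medians were 0.05 and -0.09, and their part in the ER values was not tested. At an adjusted p under 0.1 with any fold, a threshold applied after the data were seen, 2 of 27 were higher in 84Q (Derl1 and Hspa5) beside 1.54% of all genes. For 84Q+IGF-1 they were 5 of 27 (Hspa5, Sdf2l1, Calr, Hyou1 and Creld2) beside 1.04%. Without 15Q replicate 2 or 15Q replicate 3 these counts were 0 in both comparisons. Leaving out 84Q replicate 3 also gave 0 in 84Q, as did leaving out 84Q+IGF-1 replicate 1 in the treated group.

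Hspa5, the ER chaperone BiP, measured 131 ± 7.15 CPM in 15Q, 158 ± 7.69 CPM in 84Q and 166 ± 17.03 CPM in 84Q+IGF-1 (SD, n = 3). Its log2 fold change was 0.28 (95% interval 0.11 to 0.44, edgeR adjusted p = 0.0838) in 84Q and 0.34 (0.18 to 0.51, adjusted p = 0.0410) in 84Q+IGF-1 against 15Q, with no overlap between libraries and under 1.5-fold. Calr, the calcium-binding chaperone calreticulin, was 264 ± 7.13, 309 ± 11.8 and 329 ± 39.3 CPM. Sdf2l1 was 4.78 ± 0.339, 6.56 ± 1.45 and 7.87 ± 1.27 CPM, with a log2 fold change of 0.72 ± 0.17 (SE, adjusted p = 0.0542) in 84Q+IGF-1, and that call was lost without 15Q replicate 2, 15Q replicate 3 or 84Q+IGF-1 replicate 1. With the meningeal sum as a covariate no ER gene passed at any fold, but that covariate and the group cannot be told apart.

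The ER stress sensors themselves did not pass the test. Ern1, which encodes IRE1, had log2 fold changes of -0.07 (95% interval -0.26 to 0.12) in 84Q and -0.04 (-0.24 to 0.15) in 84Q+IGF-1 against 15Q, and Atf6 had -0.15 (adjusted p = 0.223) and -0.04 (adjusted p = 0.773). Dnajb9, a sensitive target of spliced Xbp1, was 43.6 ± 0.983 CPM in 15Q, 42.7 ± 3.04 CPM in 84Q and 41.5 ± 0.901 CPM in 84Q+IGF-1.

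No CARE match was found in the promoter windows of Hspa5 and Calr. Of the 23 ER genes with a promoter sequence, 1 held a CARE match, Herpud1.

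The comparison of 84Q+IGF-1 with 84Q, which asks what the treatment changes, gave edgeR adjusted p of at least 0.969 for each of the 10 genes. At an unadjusted p under 0.05, 1 of the 10 passed, Chac1, beside 4.68% of all genes. The log2 fold changes of the other 9 lay between -0.17 for Atf3 and 0.10 for Xbp1. For Atf4, Ddit3, Xbp1, Ppp1r15a, Asns, Sesn2 and Slc7a11 a 1.5-fold difference lies outside the 95% interval. It lies inside that of Atf3 and Trib3, the genes of lowest level, and of Chac1.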

How the data were processed

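The authors trimmed the reads (Trimmomatic 0.36), aligned them (HISAT2 2.2.0, GRCm38.p6) and counted them on genes with featureCounts, and the deposited values are these unnormalized counts for 37816 genes. The annotation and strand setting of the counting are not given in the sources used here. Libraries were made from total RNA with a strand-specific kit. Groups and replicate numbers follow the labels, and the study's text treats each library as 1 mouse.

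Counts were tested in edgeR 4.0.16 (R 4.3.3) with filterByExpr, TMM scaling and a quasi-likelihood fit to all 9 libraries, with group as the model term. Over the 19353 genes that passed the filter, p was adjusted by Benjamini-Hochberg. The thresholds of the study's methods were kept, an adjusted p under 0.1 with a change of 1.5-fold or more, and an adjusted p under 0.05, which its results use, was an alternative. Standard errors were derived from the F statistic. The script was tested on simulated counts. DESeq2 1.42.0, other scalings, thresholds, covariates, a replicate block and leaving out each library were the alternatives. Covariates for meningeal genes, the omission of 3 libraries and the count at adjusted p alone were added after seeing the data.

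CPM used TMM-scaled totals. TPM used exon unions of GENCODE vM21, in which 37681 genes had a position. Promoters came from RefSeq (GRCm38.p6), where all 10 members matched.

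All 10 genes were named with their values. From the lists of the eIF2 arm, ATF4 targets and the ER response, called genes (at most 5 a list and comparison) and a fixed set of anchor genes were named. Derl1, Calr, Hyou1, Creld2, Eif2ak1, Eif2ak2, Aldh1l2, Slc1a5 and the tubulin genes were named after their values were seen. The members and lists were chosen with earlier results of these data known.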

Additional observations from a re-analysis of the deposited data

How the results depend on the processing

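The call of 1 of the 10 genes in 84Q against 15Q became 0 at an adjusted p under 0.05, with the replicate block, with the meningeal covariate and with the 3 libraries high in choroid plexus genes left out. In 84Q+IGF-1 against 15Q it became 0 with the replicate block, the choroid plexus covariate, the meningeal covariate and without those 3 libraries, and 2 with no fold threshold. Leaving out 1 library at a time gave 0 to 1 in both. Under the choroid plexus covariate Slc7a11 had -0.59 in 84Q+IGF-1. The ATF4 target count of 2 in 84Q+IGF-1 against 15Q became 1 at an adjusted p under 0.05 and with the choroid plexus covariate, 0 with the meningeal covariate and without the 3 libraries, and 0 to 2 leaving out 1 library. In 84Q that count was 0 to 1 leaving out 1 library. The ER count of 1 in 84Q+IGF-1 became 0 at an adjusted p under 0.05, with the replicate block, with Xist or the meningeal sum as covariate and without the 3 libraries, 0 to 1 leaving out 1 library, and 5 with no fold threshold, which gave 2 in 84Q. At adjusted p alone the ER count of 2 in 84Q was 4 under DESeq2 and with no filter, 0 at an adjusted p under 0.05, with the block, Xist, the meningeal sum or without the 3 libraries, and 0 to 4 leaving out 1 library. The count of 5 in 84Q+IGF-1 was 8 with no filter, 1 at an adjusted p under 0.05, with the block and with Xist, 2 with the choroid plexus covariate, 0 with the meningeal sum and without the 3 libraries, and 0 to 6 leaving out 1 library. The causes were not tested.

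Same-numbered libraries did not deviate together. Correlations of their deviations from the group means ran from -0.31 to 0.08 over 9 pairs, and 0 of 9 libraries correlated best with their own number. With the replicate block Slc7a11 had log2 fold changes of -0.67 and -0.75 against 15Q, with edgeR adjusted p of 0.133 and 0.101, and that of Xbp1 in 84Q+IGF-1 was 0.101.

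With the meningeal sum as a covariate, Slc7a11, called at -0.75 in 84Q+IGF-1 against 15Q, was 0.13 ± 0.17 (SE). Xbp1, at 0.29 in 84Q and 0.40 in 84Q+IGF-1, was -0.00044 ± 0.11 and -0.011 ± 0.14. These 3 values lay within 1 SE of 0, and this covariate cannot be told apart from the group. The other values that changed sign were smaller before the change. Against 15Q in 84Q+IGF-1, Ddit3 was 0.0079 under DESeq2, 0.0015 under DESeq2 size factors, 0.0031 with the libraries of 2 groups and 0.052 without the 3 libraries. Ppp1r15a was -0.020 with the choroid plexus covariate, -0.042 with the meningeal sum and -0.025 without the 3 libraries, and Chac1 was -0.13 without them. With the meningeal sum, Ddit3 was -0.063 in 84Q and Atf4 was -0.13 in 84Q+IGF-1. In 84Q+IGF-1 against 84Q, Slc7a11 was 0.019 with the choroid plexus covariate, 0.18 with the meningeal sum and 0.0095 without the 3 libraries, and Xbp1 was -0.010 with the meningeal sum. Leaving out 1 library gave ranges that crossed 0 for Ppp1r15a (-0.030 to 0.18) and Sesn2 (-0.10 to 0.019) in 84Q. In 84Q+IGF-1 against 15Q they crossed 0 for Ddit3 (-0.035 to 0.023), Ppp1r15a (-0.071 to 0.11) and Sesn2 (-0.11 to 0.0047). In 84Q+IGF-1 against 84Q they did so for Atf3 (-0.39 to 0.0053), Asns (-0.077 to 0.063), Slc7a11 (-0.25 to 0.015), Atf4 (-0.15 to 0.014), Sesn2 (-0.069 to 0.052), Ppp1r15a (-0.16 to 0.055), Xbp1 (-0.00072 to 0.21) and Trib3 (-0.21 to 0.0027). Atf3 had the fewest reads of the 10 genes, 19 to 106 per library, and the part of depth in its values was not tested.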
